A study of Mus musculus with 8 samples.

Results

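The genes described here make ribosomes: the subunits of RNA polymerase I and the nucleolar proteins that process ribosomal RNA and assemble the ribosomal subunits. The list holds 36 genes named for this function, and membership is decided by the gene symbol alone. Of these, 34 had a probe set on the array that is annotated to that gene alone, among 8252 genes with such a probe set. Dkc1 and Nop14 had none. The brightest probe set of each gene was used, and 33 of the 34 genes were bright enough to be tested. The exception was Wdr12, a large subunit assembly factor, whose signals of 2.1 to 17.4 over the 8 arrays were too dim.

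RNA came from sorted follicular B cells of mice, measured on 8 arrays in 4 groups of 2. All cells carried an antigen receptor that binds hen egg lysozyme (HEL). In IgM cells this receptor was an IgM, and in IgMG cells a chimera whose extracellular spacer, transmembrane part and cytoplasmic tail came from IgG1. Cells of each kind were unstimulated or stimulated with HEL. The strain, the age of the mice, the transgene's promoter and the length of stimulation were not given in the labels read here. Each array pooled several mice: 2 and 4 for unstimulated IgM cells, 4 and 2 for IgM cells with HEL, 5 and 6 for unstimulated IgMG cells, and 8 and 6 for IgMG cells with HEL. Receptor and number of pooled mice cannot be told apart. The labels do not say whether arrays shared mice, so p-values measure only the spread between these arrays.

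The B cell genes Cd79a and Ms4a1 had signals of 5637 to 7758 and 4055 to 6137, while Cd3d, Cd3e and Cd3g, which define T cells, had signals of at most 16.2. Of the 10 T cell markers on the array, 3 were bright enough to be tested: Cd2 at 761 to 1588, Lat at 61.9 to 95.8 and Cd4 at 13.5 to 89.8. The erythroid gene Hba-a1 had signals of 9595 to 16616. Fcer2a, which is high on follicular B cells, had signals of 1099 to 3434, and Cr2 of 45.6 to 112.6. Arrays also differed in other features. The Gapdh 5'/3' signal ratio, which falls as RNA is degraded, lay between 0.140 and 0.395 on 7 arrays and was 0.755 on the second array of IgM cells with HEL. The second array of unstimulated IgMG cells had the highest summed signals of the 8 natural killer cell markers and the 23 myeloid markers on the array, 2851 and 23781, against at most 725 and 9016 on the other arrays. The number of arrays limits the precision, and the smallest p that exact permutation of 2 arrays and 2 arrays allows is 0.333. In pooled RNA of this kind, fewer cells of a type and less RNA per cell cannot be told apart.

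Ribosome production starts in the nucleolus, where RNA polymerase I transcribes one long precursor of the ribosomal RNAs. Small nucleolar ribonucleoproteins, called snoRNPs, modify this precursor: those of the box C/D class methylate riboses and those of the box H/ACA class convert uridine to pseudouridine. Assembly factors then cut and fold the RNA and add ribosomal proteins, in separate lines for the small and the large subunit. Resting lymphocytes make few ribosomes and raise this production when activated, and the transcription factor Myc is a known activator of many of these genes.

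HEL raised many of the genes in IgM cells. Of the 33 genes tested, 21 rose and none fell, judged by limma, a linear model fitted over all probe sets, with a threshold of 0.05 on the adjusted p. Among all 7453 probe sets tested, 6.70% rose and 7.27% fell. At an unadjusted p under 0.05, 0 of the 33 genes were lower with HEL, against 15.5% of all probe sets. The median log2 change with HEL over the 33 genes was 0.99, against -0.02 over all probe sets. Both arrays with HEL lay above both unstimulated arrays for 30 of the 33 genes, against 27.6% of all probe sets, and below them for 2, Polr1a and Mybbp1a, against 30.6%. As a ratio of mean signals, HEL over unstimulated, the median over the 33 genes was 2.05. The median log2 change was 0.83 when the first unstimulated array was left out. It was 0.85 when the second array with HEL was left out, the one with the high 5'/3' ratio. Among 9 B cell markers, 4 fell with HEL in IgM cells and 1 in IgMG cells, with median log2 changes of -0.49 and 0.07. Their summed signal went from 25093 and 27006 to 18695 and 20922 in IgM cells and from 25216 and 24474 to 24714 and 20553 in IgMG cells, and its part in the response was not tested.

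In IgMG cells, 12 of the 33 genes rose and 0 fell, against 3.10% and 2.29% of all probe sets. At an unadjusted p under 0.05, 0 were lower, against 12.0% of all probe sets. The median log2 change was 0.77, against -0.05 over all probe sets. Both arrays with HEL lay above both unstimulated arrays for 24 genes, against 23.7% of all probe sets, and below them for the RNA polymerase I subunits Polr1a, Polr1c and Polr1d, against 29.4%. The median ratio of mean signals was 1.77. Leaving out the first array with HEL gave a median log2 change of 0.81, and leaving out the second gave 0.64. In a fit that included the 5'/3' ratio of each array, 6 genes rose. In that fit 163 of all 7453 probe sets passed the threshold in either direction.

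All 12 genes that rose in IgMG cells also rose in IgM cells: Ncl, Gnl3, Ddx21, Nop56, Nop58, Nhp2, Gar1, Tsr1, Bysl, Nip7, Rrs1 and Ppan. The other 9 that rose in IgM cells had positive log2 changes of 0.05 to 0.81 in IgMG cells that did not pass the threshold. For the mean of both responses, 26 of 33 genes rose and 0 fell, against 9.18% and 11.0% of all probe sets, and at an unadjusted p under 0.05 0 were lower, against 18.8%. Leaving out 1 array left between 19 and 26. All 4 arrays with HEL lay above all 4 unstimulated arrays for 22 genes, against 10.8% of all probe sets, and below them for 0, against 12.9%. The genes past the threshold in the mean response and in neither receptor alone were Polr1b, Fbl, Nop10, Rcl1 and Brix1. The 7 tested genes that did not pass it were Polr1a, Polr1c, Polr1d, Mybbp1a, Imp4, Bop1 and Ddx18.

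**Figure D1:**
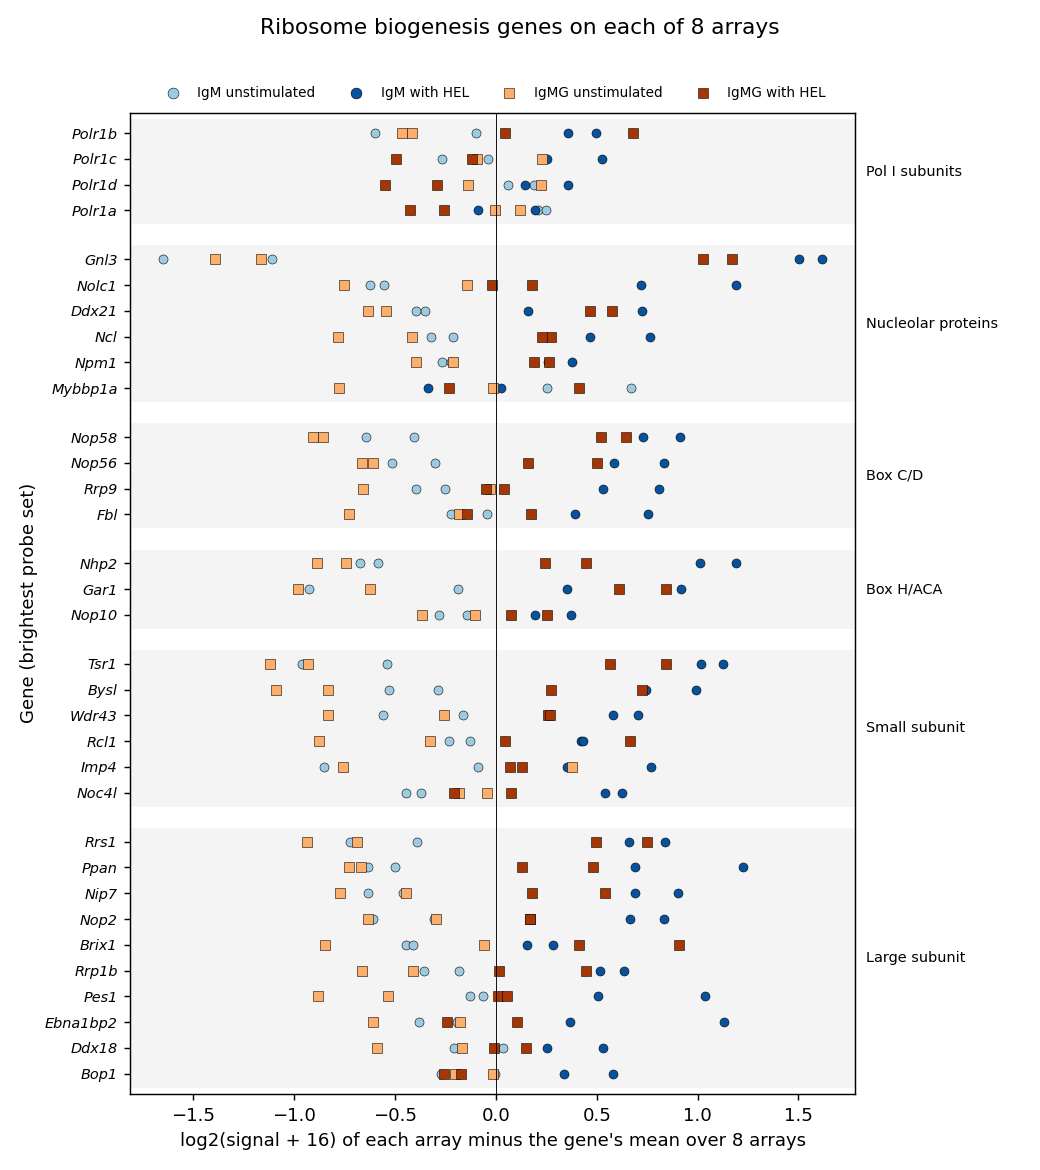
Level of each of the 33 tested genes on each of the 8 arrays. The horizontal axis is log2(signal + 16) of an array minus the gene's mean over 8 arrays, rows are genes grouped by role, and colours mark the 4 groups. For 22 genes all 4 arrays with HEL lie to the right of all 4 unstimulated arrays.

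RNA polymerase I itself had median log2 changes of 0.33 in IgM and -0.39 in IgMG cells over its 4 subunits, against 1.00 and 0.81 over the other 29 genes. Polr1a and Polr1b form its catalytic core, and Polr1c and Polr1d are assembly subunits that it shares with RNA polymerase III. None of these 4 rose in IgM or in IgMG cells alone, and 1, Polr1b, rose in the mean response. Polr1b had signals of 113 and 166 in unstimulated IgM cells and 259 and 234 with HEL, and of 131 and 126 in unstimulated IgMG cells and 186 and 297 with HEL. The 4 arrays with HEL were all above the 4 unstimulated ones, and the mean log2 change was 0.79 ± 0.18 (SE, adjusted p = 0.0151). Its probe set carries the suffix by which Affymetrix marked probes shared by similar sequences, so other transcripts may add to its signal.

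Polr1a, the largest subunit, had signals of 144 and 149 in unstimulated IgM cells, 114 and 143 with HEL, 135 and 122 in unstimulated IgMG cells and 100.3 and 87.4 with HEL. The arrays with HEL were the lower ones in both kinds of cell, and the mean log2 change of -0.29 ± 0.13 (SE) did not pass the threshold (adjusted p = 0.173). Polr1d had log2 changes of 0.12 ± 0.21 in IgM and -0.46 ± 0.21 in IgMG cells. Polr1c went from 187 and 222 to 335 and 275 in IgM cells, and from 270 and 213 to 209 and 158 in IgMG cells. Its arrays with HEL were thus the higher ones in IgM cells and the lower ones in IgMG cells. The difference of its responses, IgMG minus IgM, was -0.92 ± 0.30 (SE) on the log2 scale, with an unadjusted p = 0.0142 and an adjusted p = 0.42. A second, dimmer probe set of Polr1c had changes of 0.49 ± 0.45 and 0.39 ± 0.45 (SE), neither past the threshold. The estimates of the probe sets thus have opposite signs in IgMG cells, but the signals of the dimmer one overlapped there.

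Among the nucleolar proteins, 5 of 6 rose in IgM cells, 3 in IgMG cells and 5 in the mean response. Gnl3, also called nucleostemin, is a nucleolar GTP-binding protein of proliferating cells. Its signal was 108 and 164 in unstimulated IgM cells and 1085 and 1176 with HEL, and 132 and 157 in unstimulated IgMG cells and 775 and 858 with HEL. All arrays with HEL were several times above all unstimulated ones. Its log2 changes of 2.94 ± 0.21 in IgM cells (adjusted p = 9.83e-05) and 2.38 ± 0.21 in IgMG cells (adjusted p = 6.33e-04) were the largest among the 33 genes in both kinds of cell.

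Ncl, nucleolin, binds nascent ribosomal RNA. It had signals of 1287 and 1385 in unstimulated IgM cells and 2741 and 2231 with HEL, and of 1201 and 930 in unstimulated IgMG cells and 1947 and 1890 with HEL. The groups did not overlap, and the log2 changes of 0.88 ± 0.17 and 0.85 ± 0.17 (SE) passed the threshold with adjusted p = 0.0104 and 0.0253. Ddx21, an RNA helicase that acts on polymerase I transcription and on snoRNAs, rose by 0.82 ± 0.20 in IgM cells and by 1.11 ± 0.20 in IgMG cells. Npm1, nucleophosmin, an abundant nucleolar chaperone, rose by 0.56 ± 0.13 in IgM cells (adjusted p = 0.0252), while its change of 0.53 ± 0.13 in IgMG cells had an adjusted p = 0.0535.

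Nolc1 is a chaperone that brings snoRNPs to the nucleolus. Its signal was 41.1 and 44.1 in unstimulated IgM cells and 129 and 185 with HEL, but 36.3 and 63.8 in unstimulated IgMG cells and 71.1 and 83.8 with HEL. The arrays of IgM cells with HEL were the highest of the 8. Nolc1 rose by 1.54 ± 0.27 (SE) in IgM cells (adjusted p = 0.00742), its change of 0.53 ± 0.27 in IgMG cells did not pass (adjusted p = 0.288), and the difference of -1.01 ± 0.38 had an unadjusted p = 0.0265 and an adjusted p = 0.465. Mybbp1a, a nucleolar protein that binds Myb, had changes of -0.62 ± 0.31 in IgM and 0.49 ± 0.31 in IgMG cells, neither past the threshold. A second probe set of Mybbp1a went the other way in IgM cells, with a rise of 1.26 (adjusted p = 0.0433), so the direction of this gene is uncertain.

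All 4 genes of the box C/D snoRNPs rose in the mean response, 3 of them in IgM and 2 in IgMG cells. Nop58 and Nop56 are the paired scaffold proteins of these particles. Nop58 had signals of 110 and 132 in unstimulated IgM cells and 309 and 354 with HEL, and of 92.3 and 88.6 in unstimulated IgMG cells and 266 and 291 with HEL. Each array with HEL was above each unstimulated one. Nop58 rose by 1.34 ± 0.18 in IgM and 1.47 ± 0.18 in IgMG cells (SE, adjusted p = 0.00221 and 0.00325), and Nop56 by 1.12 ± 0.18 and 0.97 ± 0.18 (adjusted p = 0.00482 and 0.0191). The Nop58 probe set carries the same suffix for shared probes as that of Polr1b, and so do both tested probe sets of Mybbp1a given above. Those used for Bysl and Brix1 carry other suffixes, _s_at and _r_at, instead of the plain _at.

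Fbl, fibrillarin, is the methyltransferase of the same particles. Its signals were 877 and 774 in unstimulated IgM cells, 1193 and 1538 with HEL, 795 and 540 in unstimulated IgMG cells and 819 and 1022 with HEL. The arrays of IgMG cells with HEL overlapped the range of unstimulated IgM cells. Its changes of 0.71 ± 0.22 and 0.47 ± 0.22 did not pass alone, and its mean response of 0.59 ± 0.16 (SE) did (adjusted p = 0.0287). Rrp9, a protein of the snoRNP that guides early small subunit processing, rose by 0.99 ± 0.23 in IgM cells (adjusted p = 0.022). Its change in IgMG cells was 0.34 ± 0.23.

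The box H/ACA snoRNPs were represented by 3 genes, since Dkc1, the pseudouridine synthase itself, was not measured. Nhp2, Gar1 and Nop10 are its partners. Nhp2 had signals of 364 and 389 in unstimulated IgM cells and 1207 and 1368 with HEL, and of 347 and 312 in unstimulated IgMG cells and 703 and 811 with HEL. The 4 groups were ordered without overlap, with both IgM groups above the IgMG group of the same treatment. Nhp2 rose by 1.73 ± 0.16 in IgM cells (SE, adjusted p = 3.35e-04) and by 1.16 ± 0.16 in IgMG cells (adjusted p = 0.00528). With HEL its level in IgMG cells was lower than in IgM cells by a log2 difference of -0.75 ± 0.16, with an unadjusted p = 0.00108 and an adjusted p = 0.192.

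Gar1 had signals of 468 and 790 in unstimulated IgM cells and 1155 and 1717 with HEL, and of 580 and 449 in unstimulated IgMG cells and 1386 and 1629 with HEL. Its arrays with HEL overlapped between the receptors. Gar1 rose by 1.19 ± 0.28 in IgM and 1.53 ± 0.28 in IgMG cells (SE, adjusted p = 0.0235 and 0.0183). Nop10 had changes of 0.50 ± 0.16 and 0.40 ± 0.16 and passed only in the mean response, at 0.45 ± 0.11 (adjusted p = 0.0218).

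Of the small subunit assembly factors, 4 of 6 tested genes rose in IgM cells, 2 in IgMG cells and 5 in the mean response. Tsr1, which sits on late small subunit precursors, had signals of 341 and 463 in unstimulated IgM cells and 1501 and 1393 with HEL, and of 349 and 304 in unstimulated IgMG cells and 1014 and 1233 with HEL. Every array with HEL was above every unstimulated one. Tsr1 rose by 1.82 ± 0.19 and 1.73 ± 0.19 (SE, adjusted p = 7.13e-04 and 0.00191), and the difference between these was -0.09 ± 0.27. Bysl, bystin, an assembly factor needed for late small subunit maturation, rose by 1.28 ± 0.21 in IgM and 1.46 ± 0.21 in IgMG cells. Wdr43, a protein of the early processing complex, rose by 1.00 ± 0.23 in IgM cells (adjusted p = 0.0209), and its change of 0.81 ± 0.23 in IgMG cells had an adjusted p = 0.076. Its other probe set rose by 1.44 in IgM cells (adjusted p = 0.0101) and had a change of 0.41 in IgMG cells.

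Noc4l, the partner of Nop14 in early small subunit precursors, had signals of 170 and 161 in unstimulated IgM cells and 335 and 355 with HEL, and of 196 and 218 in unstimulated IgMG cells and 193 and 238 with HEL. The arrays of IgM cells with HEL stood above the other 6, and the unstimulated and stimulated arrays of IgMG cells overlapped. Noc4l rose by 0.99 ± 0.18 in IgM cells (SE, adjusted p = 0.00788) and had a change of 0.05 ± 0.18 in IgMG cells. The difference of -0.94 ± 0.25 had the smallest unadjusted p of the 33 genes, 0.00434, and an adjusted p = 0.414. Imp4, a protein of the early processing snoRNP, had changes of 1.03 ± 0.38 and 0.29 ± 0.38, and Rcl1, which takes part in a cleavage of the precursor, of 0.60 ± 0.25 and 0.96 ± 0.25. Neither passed in one receptor alone, and Rcl1 rose in the mean response by 0.78 ± 0.18 (adjusted p = 0.0162).

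Among the large subunit assembly factors, 7 of 10 tested genes rose in IgM cells, 3 in IgMG cells and 8 in the mean response. Those that rose under both receptors were Rrs1, Nip7 and Ppan. Rrs1, which helps to bring the ribosomal RNA of the central protuberance into the particle, had signals of 197 and 252 in unstimulated IgM cells, 613 and 540 with HEL, 202 and 168 in unstimulated IgMG cells and 480 and 575 with HEL. The stimulated arrays of both receptors overlapped each other and lay above all unstimulated ones. Rrs1 rose by 1.31 ± 0.19 and 1.44 ± 0.19 (SE, adjusted p = 0.00355 and 0.0048).

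Ppan, the mammalian form of Peter Pan, had signals of 91.2 and 102 in unstimulated IgM cells and 253 and 374 with HEL, and of 84.6 and 88.7 in unstimulated IgMG cells and 166 and 217 with HEL. With HEL, both IgM arrays were above both IgMG arrays. Its rises were 1.53 ± 0.23 and 1.01 ± 0.23 (SE, adjusted p = 0.0036 and 0.0402). Nip7, a small RNA-binding assembly factor, rose by 1.34 ± 0.20 and 0.97 ± 0.20. A second probe set of Nip7 had changes of 0.01 and 0.73, neither past the threshold.

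Pes1, Bop1 and Wdr12 form the PeBoW complex, which acts in the maturation of the large subunit RNA. Pes1 had signals of 163 and 155 in unstimulated IgM cells and 248 and 366 with HEL, and of 112 and 85.1 in unstimulated IgMG cells and 172 and 177 with HEL. The IgMG arrays with HEL were thus only slightly above the unstimulated IgM arrays. Pes1 rose by 0.86 ± 0.22 in IgM cells (SE, adjusted p = 0.0339), and its change of 0.74 ± 0.22 in IgMG cells had an adjusted p = 0.091. Bop1 had changes of 0.60 ± 0.20 and -0.11 ± 0.20, neither past the threshold, and Wdr12 was too dim.

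Nop2, a methyltransferase of the large subunit RNA, rose by 1.21 ± 0.19 in IgM cells (adjusted p = 0.00437) and had a change of 0.64 ± 0.19 in IgMG cells (adjusted p = 0.0865). Rrp1b rose by 0.84 ± 0.22 and Ebna1bp2 by 1.04 ± 0.29 in IgM cells, and their changes in IgMG cells were 0.77 ± 0.22 and 0.32 ± 0.29. Brix1 had signals of 178 and 183 in unstimulated IgM cells, 306 and 279 with HEL, 131 and 238 in unstimulated IgMG cells and 480 and 336 with HEL. Its highest arrays were those of IgMG cells with HEL, and its changes were 0.65 ± 0.27 and 1.12 ± 0.27 (SE, adjusted p = 0.154 and 0.0502). Ddx18, an RNA helicase, had changes of 0.48 ± 0.20 and 0.45 ± 0.20 that did not pass, and its mean response of 0.46 ± 0.14 had an adjusted p = 0.0521. Its other probe set had changes of 1.24 and -0.21.

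**Figure D2:**
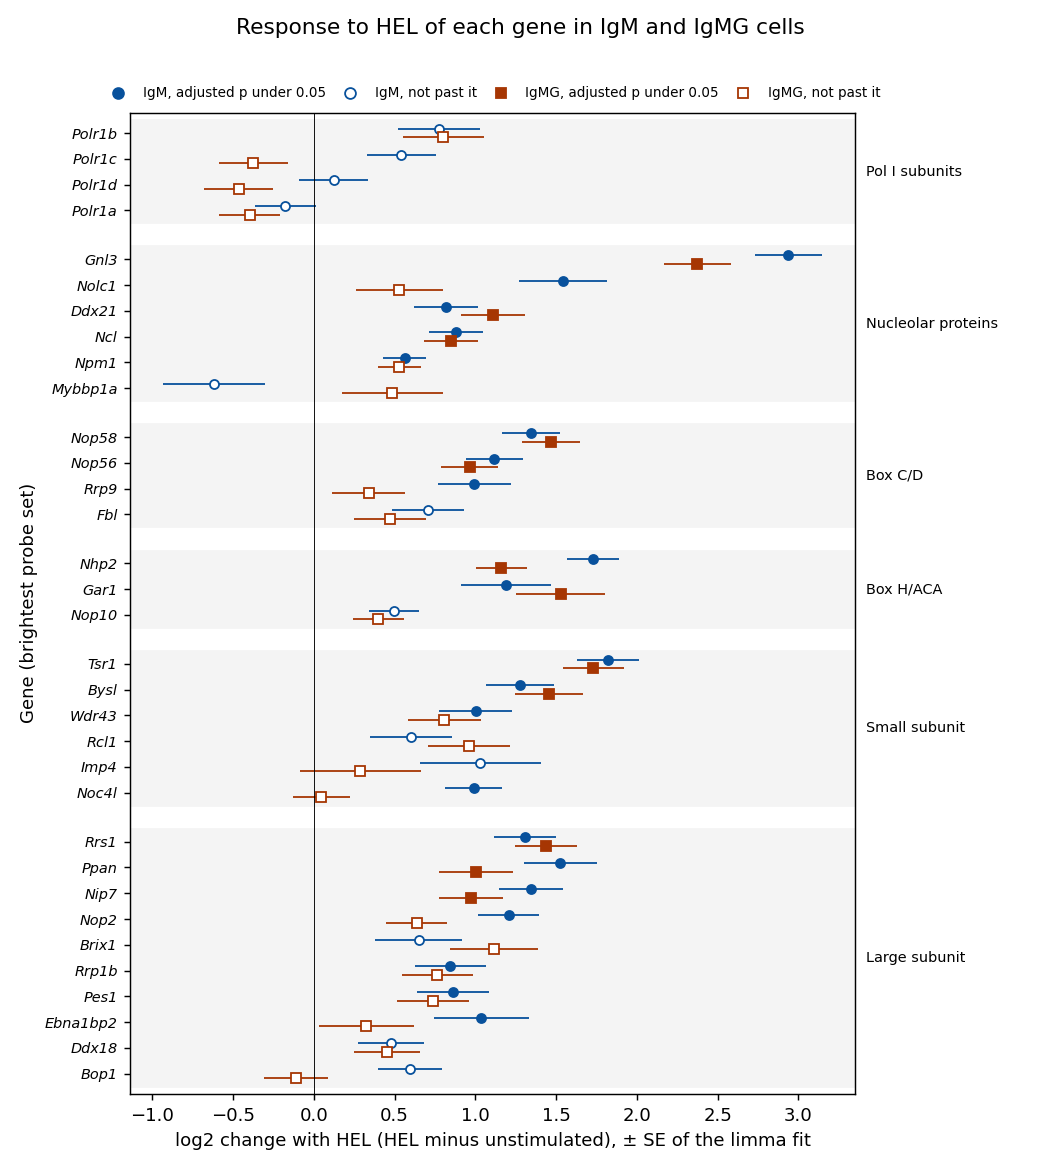
Change with HEL of each of the 33 tested genes in IgM and IgMG cells. The horizontal axis is the log2 change, points are estimates and bars their standard errors from limma, and rows are genes grouped by role. Gnl3 lies farthest to the right in both kinds of cell, and the 4 RNA polymerase I subunits lie between -0.46 and 0.80.

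The study was designed to compare the receptors, and for the difference of the responses no gene of the list passed the threshold. Among all 7453 probe sets, 0 passed it in limma, 0% of those tested. At an unadjusted p under 0.05, the response of IgMG cells was the smaller in 5 of 33 genes, Polr1c, Nolc1, Nhp2, Noc4l and Bop1, and the greater in 1, Mybbp1a, against 5.00% and 5.06% of all probe sets. The difference was negative for 24 of 33 genes, or 72.7%, against 51.3% of all probe sets. Its median was -0.15, against -0.02 over all probe sets. Across the 33 genes the responses of IgM and IgMG cells, which come from separate arrays, correlated with r = 0.72 and rho = 0.66, a description over genes that share those arrays. Over all 7453 probe sets the values were r = 0.62 and rho = 0.50.

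With HEL, the genes were mostly at lower levels in IgMG than in IgM cells. The log2 difference was negative for 29 of 33 genes, 87.9%, against 50.4% of all probe sets, and its median was -0.38, against 0.00. Both IgMG arrays lay below both IgM arrays for 24 genes, 72.7%, against 24.5% of all probe sets, and above them for 1, Brix1, against 23.8%. None of these differences passed the adjusted threshold in limma, which 1 of 7453 probe sets did, 0.0134%. At an unadjusted p under 0.05, 12 genes were lower, 36.4% against 6.86% of all probe sets, and 0 higher, against 7.06%.

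Unstimulated IgMG cells showed the same sign to a smaller extent. The difference was negative for 27 of 33 genes, 81.8%, against 48.7% of all probe sets, with a median of -0.17 against 0.01. Without the second unstimulated IgM array this median was -0.063 and the count 22, and without the first unstimulated IgMG array they were -0.26 and 22. Here 12 genes lay lower without overlap, against 15.1% of all probe sets, and 1, Noc4l, higher, against 16.5%. None passed the adjusted threshold, as did 0 of the 7453 probe sets, and at an unadjusted p under 0.05, 3 genes were lower and 0 higher, against 1.91% and 2.71%. On each array, the median over the 33 genes stood at -0.38 and -0.22 in unstimulated IgM cells and at -0.42 and -0.66 in unstimulated IgMG cells on the log2 scale, relative to each gene's own mean over 8 arrays. With HEL it stood at 0.53 and 0.70 in IgM cells and at 0.13 and 0.27 in IgMG cells. The groups did not overlap in this median.

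Other values differed between the receptors, some without overlap. The 5'/3' ratio was 0.373, 0.259, 0.328 and 0.755 on the IgM arrays and 0.237, 0.395, 0.221 and 0.140 on the IgMG arrays, each listed with the unstimulated arrays first. The summed signal of natural killer cell markers was 301 to 405 on IgM arrays and 409 to 2851 on IgMG arrays, and that of 6 marginal zone and B-1 cell markers 746 to 940 and 994 to 1313. Neither sum overlapped. Of the 5 marginal zone and B-1 cell markers tested, 4 were higher in unstimulated IgMG than IgM cells, but only 2 with HEL. With HEL, the median log2 difference over these 5 markers, IgMG minus IgM, was -0.06, with a range of -0.78 to 1.32. Over all arrays the 5'/3' ratios overlapped, as did the sums of myeloid markers. The sum of myeloid markers was 2191 to 7085 on IgM arrays and 3539 to 23781 on IgMG arrays. On the arrays with HEL alone, neither overlapped. The 5'/3' ratios there were 0.328 and 0.755 in IgM cells and 0.221 and 0.140 in IgMG cells. The myeloid sums there were 6526 and 2191 in IgM cells and 8511 and 9016 in IgMG cells. With the 5'/3' ratio in the fit, the difference with HEL was negative for 30 of 33 genes, with a median of -0.50. Without the second array of IgM cells with HEL it was negative for 30, with a median of -0.38. Leaving out the second unstimulated IgMG array cannot change this difference, which uses only arrays with HEL. The part of the marker signals in the lower level in IgMG cells was not tested.

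**Figure D3:**
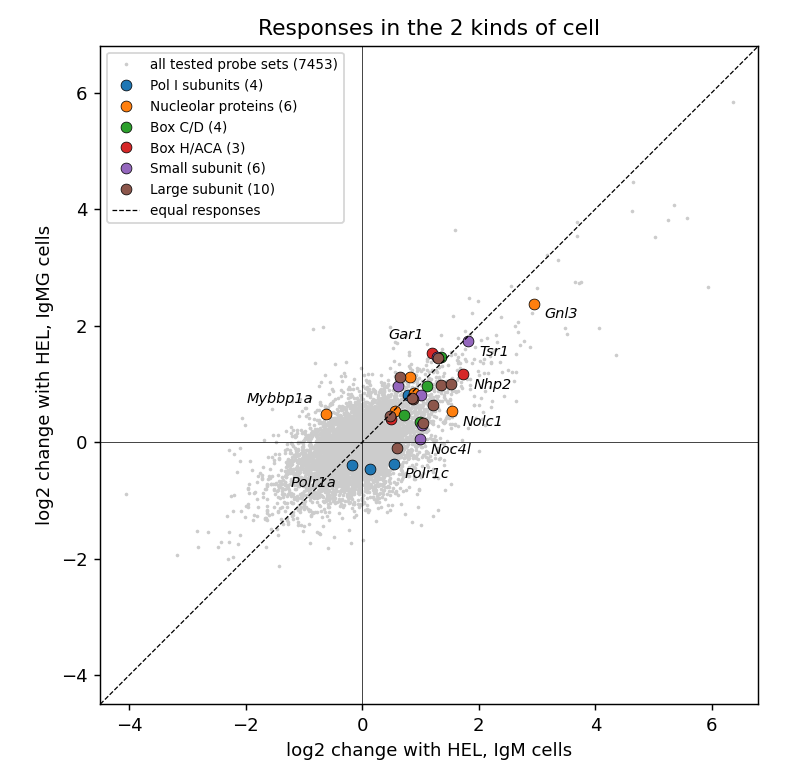
Response to HEL in IgMG cells against that in IgM cells, both as log2 change. Grey points are all 7453 tested probe sets, coloured points the 33 genes by role, and the dashed line marks equal responses. Of the 33 genes, 24 lie below the line, among them Nolc1, Noc4l, Nhp2 and Polr1c.

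Other genes of the same pathway were taken from lists by function. Of 24 other small subunit factors tested, 8 rose and 0 fell in IgM cells and 4 rose and 0 fell in IgMG cells, with median log2 changes of 0.39 and 0.44. Wdr75, of the same early complex as Wdr43, rose by 1.89 ± 0.20 in IgM and 1.36 ± 0.20 in IgMG cells. Rrp12, a factor of ribosomal subunit maturation and export, rose by 1.78 ± 0.37 and Ltv1, a late small subunit factor, by 1.69 ± 0.31 in IgM cells, and their changes in IgMG cells were 1.39 and 1.03. Of 31 other large subunit factors, 11 rose in IgM and 6 in IgMG cells and 0 fell in either, with medians of 0.56 and 0.31. Mki67ip, a nucleolar RNA-binding protein, rose by 1.34 ± 0.27 and 1.84 ± 0.27, Ftsj3, a methyltransferase of large subunit maturation, by 1.31 ± 0.22 and 1.06 ± 0.22, and Rsl1d1, a nucleolar protein, by 1.33 ± 0.19 and 1.02 ± 0.19. Together with the lists of other polymerase I factors, snoRNP proteins and the RNA exosome, these lists held 75 tested genes. Among them IgM cells had 19 rises and 1 fall, and IgMG cells 10 rises and 0 falls. Of all probe sets, 6.70% rose and 7.27% fell in IgM cells, and 3.10% and 2.29% in IgMG cells.

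Some other genes of the RNA polymerases passed the threshold. Over all probe sets, 6.70% rose and 7.27% fell in IgM cells, and 3.10% and 2.29% in IgMG cells. For the mean response these shares were 9.18% and 11.0%. Of 9 other polymerase I subunits and factors tested, 0 rose and 1 fell in IgM cells and 0 changed in IgMG cells. The gene that fell was Taf1b, a subunit of the promoter selectivity factor, at -0.91 ± 0.23 (SE, adjusted p = 0.0334). In the mean response 1 of these 9 genes rose and 1 fell. The one that rose was Znrd1, a small polymerase I subunit, by 0.47 ± 0.12 (adjusted p = 0.028). Of 9 subunits of RNA polymerase II or shared between polymerases, 1 rose and 2 fell in IgM cells. In IgMG cells 0 of them rose and 2 fell, and in the mean response 2 rose and 3 fell. Polr2h, which all nuclear polymerases share, rose by 0.98 ± 0.19 in IgM cells, and Polr2e, another shared subunit, fell by 1.58 on the log2 scale in IgMG cells (adjusted p = 0.018). Polr2g, a subunit of RNA polymerase II, fell by 1.00 in IgM and by 0.84 in IgMG cells on the log2 scale. None of the 4 tested polymerase III subunits passed the threshold.

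The cytosolic ribosomal proteins, which the assembly factors build into ribosomes, had 24 tested genes. None passed the threshold in either kind of cell, 1 of them, Rpl41, rose in the mean response by 0.33 ± 0.09 (SE, adjusted p = 0.0371), and the median log2 changes were 0.11 and 0.14. The plot of responses by list shows these medians beside those of the genes described here.

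**Figure D4:**
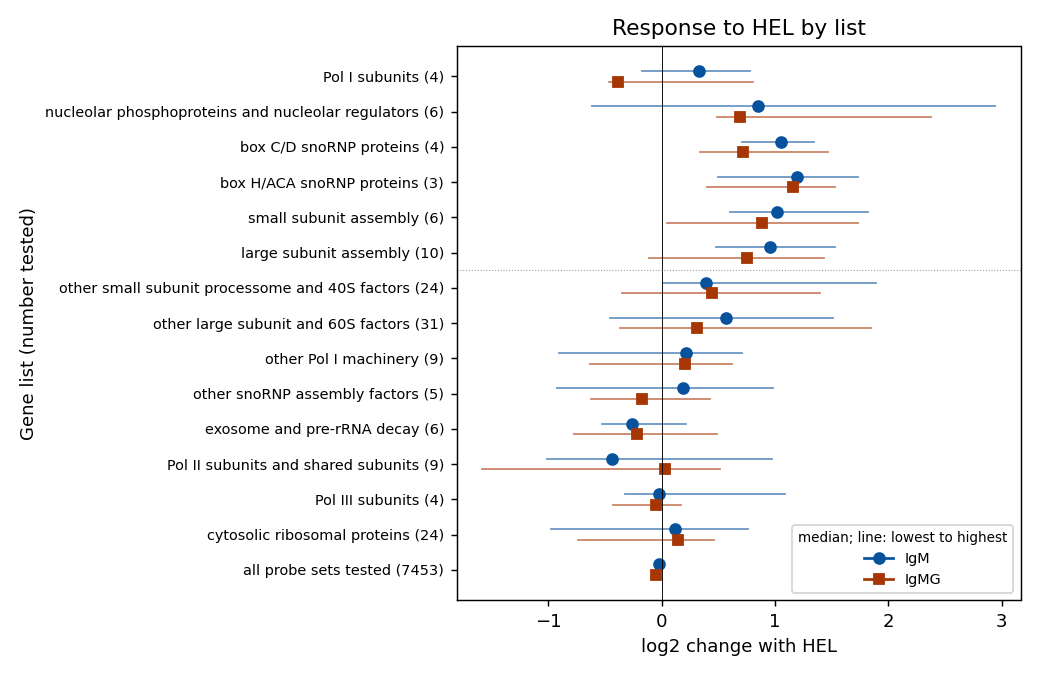
Response to HEL by list of genes, as log2 change. Circles (IgM) and squares (IgMG) are medians over the tested genes of a list, whose number is given in brackets, and lines run from the lowest to the highest gene. Without the polymerase I subunits, the 29 remaining genes have medians of 1.00 and 0.81, against 0.11 and 0.14 for the 24 cytosolic ribosomal proteins.

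Myc binds the sequence CACGTG, called an E-box, together with Max, and Mnt, Mxd4 and Mxi1 compete for Max. Myc had signals of 140 and 187 in unstimulated IgM cells and 2635 and 1981 with HEL, and of 95.4 and 136 in unstimulated IgMG cells and 1459 and 1537 with HEL. All stimulated arrays were far above all unstimulated ones, and with HEL both IgM arrays were above both IgMG arrays. Myc rose by 3.69 ± 0.22 in IgM and 3.54 ± 0.22 in IgMG cells (SE, adjusted p = 5.01e-05 and 1.07e-04). Mnt rose by 1.35 ± 0.21 in IgM cells (adjusted p = 0.0043) and had a change of 0.84 ± 0.21 in IgMG cells, and Mxd4 fell by 1.27 in IgM cells on the log2 scale (adjusted p = 0.00482). Max had changes of -0.06 and 0.02, and Mxi1 fell in the mean response by 0.67 on that scale (adjusted p = 0.0469).

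Because many of the genes rose together, their promoters were searched for this E-box on both strands; it reads the same on each. Windows of 250 bases before to 50 after the start came from RefSeq on the mouse build GRCm38.p6 and were found for 32 of the 36 genes. Some genes have several starts, and a gene was counted once if any of its windows held the E-box. This was so for 6 of the 32 genes, 18.8%, against 8.91% of 17492 protein-coding genes and 11.4% of 6577 genes on the array. Counted by window, it was 17.1% of 35, against 7.84% of those of protein-coding genes. Among genes with a window, 4 of 23 that rose in the mean response held it, 17.4%, and 2 of 6 tested genes that did not pass, 33.3%. The 6 were Imp4, Mybbp1a, Nop2, Pes1, Tsr1 and Wdr43. The related CACGCG, or CGCGTG on the other strand, stood in windows of 10 genes, 31.2%. This compares with 13.7% of protein-coding genes and 17.9% of genes on the array. Among protein-coding genes within the GC range of the listed genes it was 16%. The windows of the listed genes had a median GC content of 58.7%, against 56.3% for protein-coding genes, and within their range of GC content 10.2% of protein-coding genes held the E-box. A match is a description of the letters and not a binding site.

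The windows of Tsr1, Nop2, Wdr43 and Pes1 are shown because these genes rose in IgM cells and hold the E-box, which is in capitals, and that of Gnl3 because it had the largest rise and holds none. They lie at chr11:74897830-74898129 on the plus strand, chr6:125131633-125131932 plus, chr17:71615965-71616264 plus, chr11:3963725-3964024 plus and chr14:31019082-31019381 minus. The first base of the E-box is at position 25 from the start for Tsr1, 18 for Wdr43 and 3 for Pes1, and at -60 for Nop2, where the start is position 1 and the base before it -1.
Tsr1: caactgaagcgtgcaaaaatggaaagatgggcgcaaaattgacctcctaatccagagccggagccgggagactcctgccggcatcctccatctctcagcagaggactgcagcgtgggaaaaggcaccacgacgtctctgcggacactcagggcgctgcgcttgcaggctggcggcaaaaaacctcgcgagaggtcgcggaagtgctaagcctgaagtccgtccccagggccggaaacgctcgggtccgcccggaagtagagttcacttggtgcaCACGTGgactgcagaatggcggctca
Nop2: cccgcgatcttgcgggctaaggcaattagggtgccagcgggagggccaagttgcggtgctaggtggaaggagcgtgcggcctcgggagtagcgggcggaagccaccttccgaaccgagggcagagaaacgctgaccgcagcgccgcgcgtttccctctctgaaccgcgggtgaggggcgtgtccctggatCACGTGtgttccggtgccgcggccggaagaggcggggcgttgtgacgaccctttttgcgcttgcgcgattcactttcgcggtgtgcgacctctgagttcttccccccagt
Wdr43: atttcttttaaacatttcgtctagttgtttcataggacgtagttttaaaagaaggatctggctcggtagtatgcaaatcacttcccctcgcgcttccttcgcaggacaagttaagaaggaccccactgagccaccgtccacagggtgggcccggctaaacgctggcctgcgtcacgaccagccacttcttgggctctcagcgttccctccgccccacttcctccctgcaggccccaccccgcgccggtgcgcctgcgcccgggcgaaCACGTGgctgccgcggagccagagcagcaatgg
Pes1: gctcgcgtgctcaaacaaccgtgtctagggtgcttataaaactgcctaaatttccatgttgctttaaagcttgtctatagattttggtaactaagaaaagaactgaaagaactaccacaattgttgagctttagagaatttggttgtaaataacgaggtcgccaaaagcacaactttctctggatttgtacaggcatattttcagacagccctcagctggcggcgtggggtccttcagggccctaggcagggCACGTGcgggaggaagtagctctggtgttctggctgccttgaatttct
Gnl3: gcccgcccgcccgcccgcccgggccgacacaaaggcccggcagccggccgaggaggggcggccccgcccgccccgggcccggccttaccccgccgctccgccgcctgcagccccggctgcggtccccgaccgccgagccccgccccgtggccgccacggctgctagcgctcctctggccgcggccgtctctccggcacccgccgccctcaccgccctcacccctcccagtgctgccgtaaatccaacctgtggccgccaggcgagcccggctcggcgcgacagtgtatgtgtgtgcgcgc
Beside these sequences, the mean response of the 5 genes was 1.78 for Tsr1, 0.92 for Nop2, 0.90 for Wdr43, 0.80 for Pes1 and 2.66 for Gnl3 on the log2 scale.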

How the data were processed

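For every array, the authors deposited a linear signal intensity of each probe set, made with MAS5 per the submitters' processing notes. Arrays had been scaled to a like total, so a difference in total RNA between groups would not be seen. After 66 control probe sets were left out, the brightest 60% of 12422 probe sets by mean over 8 arrays, 7453, entered the tests as log2(signal + 16), so changes of dim genes are understated; their lowest mean signal was 23.2. Symbols came from the platform annotation of 2016, and those with several are left unnamed. A gene is given by its brightest probe set.

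Tests were two-sided, with limma 3.58.1 in R 4.3.3: 1 coefficient for each of the 4 groups, trended eBayes, and a threshold of 0.05 on p-values adjusted by Benjamini-Hochberg over all probe sets tested. The scripts were tested on simulated data. Every listed gene is named, with full statistics for the largest mean responses and the smallest p of the difference in each role. Up to 3 called genes of each other list are named, by size of the mean response, and Myc, Max, Mnt, Mxd4 and Mxi1 always. The genes and lists were chosen with earlier results of these data known. Promoters were searched in Python 3.11.15, CACGCG after the E-box; protein sequences were not used here. Alternatives varied the offset, scaling, filter, trend, arrays, replicate block and threshold. Figures used matplotlib 3.10.9.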

Additional observations from a re-analysis of the deposited data

Results flagged for a closer look

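Polr1c, an assembly subunit of RNA polymerases I and III, had responses of opposite sign: both arrays with HEL were above both unstimulated arrays in IgM cells and below them in IgMG cells. Neither log2 change passed the threshold in limma, 0.54 ± 0.21 (SE) in IgM cells with an adjusted p = 0.131 and -0.37 ± 0.21 in IgMG cells with an adjusted p = 0.347. The difference of the log2 responses, IgMG minus IgM, was -0.92 ± 0.30 (SE), with an adjusted p = 0.42. A dimmer probe set of the gene had the same sign in both, with changes of 0.49 ± 0.45 and 0.39 ± 0.45 that did not pass.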

How the results depend on the processing

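No change past the threshold, and no median of those below, turned its sign under any alternative. Changes that did not pass turned theirs under some alternative for 2 genes in IgM cells, 3 in IgMG cells, 2 in the mean response, 18 for the difference of the responses, 16 for unstimulated cells and 7 with HEL; Mybbp1a, for example, went from -0.62 to as high as 0.32 in IgM cells. The count of genes that rose in IgM cells, 21, was 12 at a threshold of 0.01 and 10 to 23 with 1 array left out. In IgMG cells, 12 became 6 at 0.01, 6 with a covariate for the Gapdh 5'/3' ratio, and 3 to 12 with 1 array left out. The median log2 change, 0.99 in IgM cells, was 0.83 with an offset of 64, 0.85 without both arrays that stand apart, and 0.83 to 1.06 with 1 array left out; in IgMG cells, 0.77 became 0.56 with that offset and 0.64 to 0.83. The median difference of -0.15 ranged from -0.29 to -0.046 with 1 array left out. The covariate and the removal of both arrays were chosen after seeing the data. Leaving out 1 array leaves a group of 1, assumed to vary like the others. In the fits with the lowest counts, calls over all probe sets were lower as well. Comparisons of the receptors gave 0 calls throughout, with negative differences for 26 to 31 genes with HEL, 22 to 28 unstimulated and 18 to 27 for the responses. Of the genes that rose, 9 of 21 in IgM cells (Gnl3, Nhp2, Nip7, Nop2, Nop56, Nop58, Ppan, Rrs1 and Tsr1) and 2 of 12 in IgMG cells (Gnl3 and Tsr1) did so under every alternative. A replicate block gave 18 in IgM cells, 12 in IgMG cells, 25 in the mean response and 0 for the receptors. The labels number the arrays of each group exp1 and exp2. Deviations from the group means correlated between same-numbered arrays with r of -0.161 to 0.0163. With 2 arrays per group, this cannot show whether same-numbered arrays shared an experiment.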

Other observations

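Other RNA-processing lists were measured beside the assembly factors. Of 6 tested genes of the RNA exosome, which trims ribosomal RNA precursors and degrades RNA, 0 passed the threshold in either kind of cell, with median log2 changes of -0.26 in IgM and -0.22 in IgMG cells. Of 5 other snoRNP genes 0 passed it, with medians of 0.19 and -0.17. Among 19 tested cell cycle genes, IgM cells had 1 rise and 1 fall and IgMG cells 1 rise, with medians of -0.12 and -0.05. Maf1, a repressor of RNA polymerase III, fell by 0.64 on the log2 scale in IgM cells (adjusted p = 0.0418) and had a change of -0.70 in IgMG cells (adjusted p = 0.0533).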
